A study of Mus musculus with 9 samples.

Results

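The genes described here are 10 genes of the lipid droplet and of triglyceride turnover, chosen by symbol from a table of liver transcript abundance: the droplet coat genes Plin2, Plin4 and Plin5, the CIDE family genes Cidea, Cideb and Cidec, the synthesis genes Dgat1 and Dgat2, the lipase gene Pnpla2 and its inhibitor G0s2. All 10 symbols matched 1 of the 55414 annotated features each. Of the genes, 9 of 10 had a mean of at least 1 TPM over the 9 libraries and were tested together with all 12860 genes above that level, while Cidea, with a mean of 0.624 TPM, was not tested. TPM is a measure of transcript abundance scaled for transcript length and for the sum of its library, so levels of different genes can be set side by side.

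Livers came from NSG mice, an immunodeficient strain that lacks functional T, B and NK cells, and all samples carry the genotype label WT. Mice received tail vein injections over 5 weeks of phosphate-buffered saline (PBS), of extracellular vesicles (EVs) from MCF-10A cells, or of EVs from MDA-MB-231 cells, with 3 libraries for each of the 3 treatments. EVs are membrane-bound particles that cells release, MCF-10A is a human breast epithelial line that forms no tumors, and MDA-MB-231 is a human triple-negative breast cancer line. The study's title concerns miR-9-5p released by cancer cells and cholesterol homeostasis. The sources used here give no age, sex or EV dose and do not say whether each library is a separate mouse, so a p-value covers only spread among these samples, which may be technical.

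Hepatocytes store surplus fatty acids as triglyceride in lipid droplets, organelles with a neutral lipid core under a single phospholipid layer. DGAT enzymes add the last acyl chain to form triglyceride, perilipins coat the droplet and govern access of lipases, CIDE proteins act in droplet growth and in the lipidation of secreted lipoproteins, and ATGL, the product of Pnpla2, starts hydrolysis and is held back by the G0S2 protein. Several of these genes, among them Plin2, Plin5, Pnpla2 and G0s2, are known targets of the nuclear receptors PPARA or PPARG, and liver droplet content rises in fasting and in steatosis.

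Because the title names miR-9-5p, its mature sequence and the transcript sites it could pair with are shown first, with the seed (bases 2 to 8) in capitals.
mmu-miR-9-5p: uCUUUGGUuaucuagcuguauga
The seed pairs with the 7 bases ACCAAAG, with the 8 bases ACCAAAGA, or, with a 3′ terminal A, with the 7 bases CCAAAGA. None of these letters occurs in the longest annotated 3′ UTR of any of the 10 genes, which run from 221 bases for Dgat1 to 1416 bases for Plin4. Among the 11136 tested genes with a 3′ UTR in the same annotation (GENCODE on GRCm38), 22.2% hold at least 1 of them. That share was not matched for 3′ UTR length and leaves out Cidea, which was not tested, so it cannot show whether the set holds fewer sites. Such a search covers only these windows and says nothing of the miRNA's level, which these libraries did not measure.

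RefSeq promoter windows (GRCm38.p6, 250 bases before to 50 bases after a start site) matched 7 of the 10 genes. Of the 9 windows of these 7 genes, those of Plin2 and Pnpla2 and 1 of 2 for Plin5 are shown because Plin5 and Pnpla2 varied together across the libraries and Plin2 was the coat gene with the highest level. Capitals mark matches to AGGTCA, a nuclear receptor half-site, to CACGTG, an E-box, and to GGGCGG, a GC box, on either strand.
Plin2 (chr4:86670010-86670309, minus strand): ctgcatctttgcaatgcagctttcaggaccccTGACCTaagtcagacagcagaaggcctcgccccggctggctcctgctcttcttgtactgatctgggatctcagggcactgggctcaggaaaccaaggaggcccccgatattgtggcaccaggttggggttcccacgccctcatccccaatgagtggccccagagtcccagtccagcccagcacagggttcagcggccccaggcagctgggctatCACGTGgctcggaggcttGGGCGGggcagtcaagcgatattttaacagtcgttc
Plin5 (chr17:56117499-56117798, minus strand): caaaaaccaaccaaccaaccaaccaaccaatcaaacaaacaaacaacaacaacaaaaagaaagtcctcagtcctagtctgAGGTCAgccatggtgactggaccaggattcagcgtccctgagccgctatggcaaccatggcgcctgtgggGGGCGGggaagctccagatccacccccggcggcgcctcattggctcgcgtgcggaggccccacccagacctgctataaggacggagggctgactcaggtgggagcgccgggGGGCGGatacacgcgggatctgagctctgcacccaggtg
Pnpla2 (chr7:141454938-141455237, plus strand): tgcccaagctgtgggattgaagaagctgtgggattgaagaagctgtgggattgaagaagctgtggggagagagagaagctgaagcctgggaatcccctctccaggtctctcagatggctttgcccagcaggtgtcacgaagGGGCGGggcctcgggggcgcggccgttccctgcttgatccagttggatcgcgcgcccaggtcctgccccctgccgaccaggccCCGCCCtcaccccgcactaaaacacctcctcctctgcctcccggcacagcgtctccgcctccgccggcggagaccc
In the Plin2 window the half-site lies on the opposite strand at -218 from the start site, the E-box at -4 and a GC box at 15. The Plin5 window holds a half-site at -170 and GC boxes at -100 and 12. The second Plin5 window, chr17:56117249-56117548, is not printed and holds a half-site at 14 and GC boxes at -239 and -53. The 2 Plin5 windows overlap, and the GC box at -239 in the second is the one at 12 in the first. The Pnpla2 window holds GC boxes at -109 and -26 and no half-site. Of 32851 RefSeq promoter windows of this length, 16.3% hold AGGTCA, 7.15% CACGTG and 35.7% GGGCGG. Among the 9 windows of these genes, 3 hold AGGTCA (Plin2 and both Plin5 windows only), 1 CACGTG and 6 GGGCGG. A direct repeat of AGGTCA with 1 base between the copies, the arrangement bound by PPARs, was found in 0.0396% of all windows and in none of the 9 windows of these genes. A match of letters is a description of the window and not a measured binding site.

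Total TPM of the MCF-10A EV libraries came to 934986 to 979351, below the sums of the other libraries. Unannotated assembled loci are all listed at 0 there, against 1.21% to 5.70% of the total in the other 6 libraries. Annotated features above 0 numbered 17403 to 20070 per library. Hepatocyte markers (8 of 8 at a mean of at least 1 TPM) summed to between 42696 and 126838 TPM. The sum was lowest in PBS replicate 1 and MDA-MB-231 EV replicate 3, as were Alb, Ttr, Trf, Cps1 and Cyp2e1. Apoa1, Tat and Serpina1c were lowest in MCF-10A EV libraries, and Tat was highest in MDA-MB-231 EV replicate 3 (816 TPM). PBS replicate 1 and MDA-MB-231 EV replicate 3 also had the highest Xist, 320 and 273 TPM against 7.11 to 74.9 elsewhere. PBS replicate 1 had the highest mitochondrially encoded share, 26.3% against 4.96% to 12.1%. MDA-MB-231 EV replicate 2 had the lowest Xist (7.11 TPM), Malat1 (5.66 against 25.2 to 81.9 elsewhere) and Neat1 (6.0 against 35.7 to 227). It also had the fewest annotated features above 0, 17403. Sums over marker lists ran from 238 to 1564 TPM for Kupffer cells, 64 to 324 for stellate cells, 66.1 to 258 for sinusoidal endothelium, 24.0 to 127 for cholangiocytes and 19.2 to 54.7 for exocrine pancreas. The Kupffer maximum was MCF-10A EV replicate 1, which stood apart (Marco 804 TPM against 15.6 to 120 elsewhere, Adgre1 65.7 against 0.70 to 15.4, but Clec4f 0.61 against 96.5 to 243). The pancreas sum was mostly Cela1 (14.3 to 54.7 TPM), and the other 5 markers were highest in MDA-MB-231 EV replicate 3 (Prss2 8.30, Ctrb1 7.40, Amy2a5 3.77, Pnlip 3.76, Cpa1 1.69) and at most 0.66 elsewhere. By group, stellate markers summed to 110 to 170 TPM in PBS, 64 to 110 after MCF-10A EVs and 106 to 324 after MDA-MB-231 EVs, and sinusoidal markers to 89.9 to 182, 66.1 to 113 and 108 to 258. In liver tissue, fewer cells of a type and less RNA per cell cannot be told apart.

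Across the 9 libraries the genes spanned a wide range of levels. Cideb (mean 150.8 TPM over 9 libraries, range 82.0 to 221), Dgat2 (138.1, 65.8 to 261) and Plin2 (97.2, 29.3 to 278) lay highest, with overlapping ranges. Pnpla2 (36.9, 20.8 to 55.0), G0s2 (34.7, 16.9 to 61.1) and Dgat1 (24.0, 17.1 to 38.5) formed a middle tier whose ranges also overlapped. Plin5 (12.2, 4.32 to 31.8) and Cidec (7.52, 3.37 to 20.1) came next, overlapping each other, and Plin4 (1.86, 0.58 to 4.27) and Cidea lay lowest. Of the 12860 tested genes, 94.7% had a lower mean than Cideb and 13.2% a lower mean than Plin4.

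**Figure D1:**
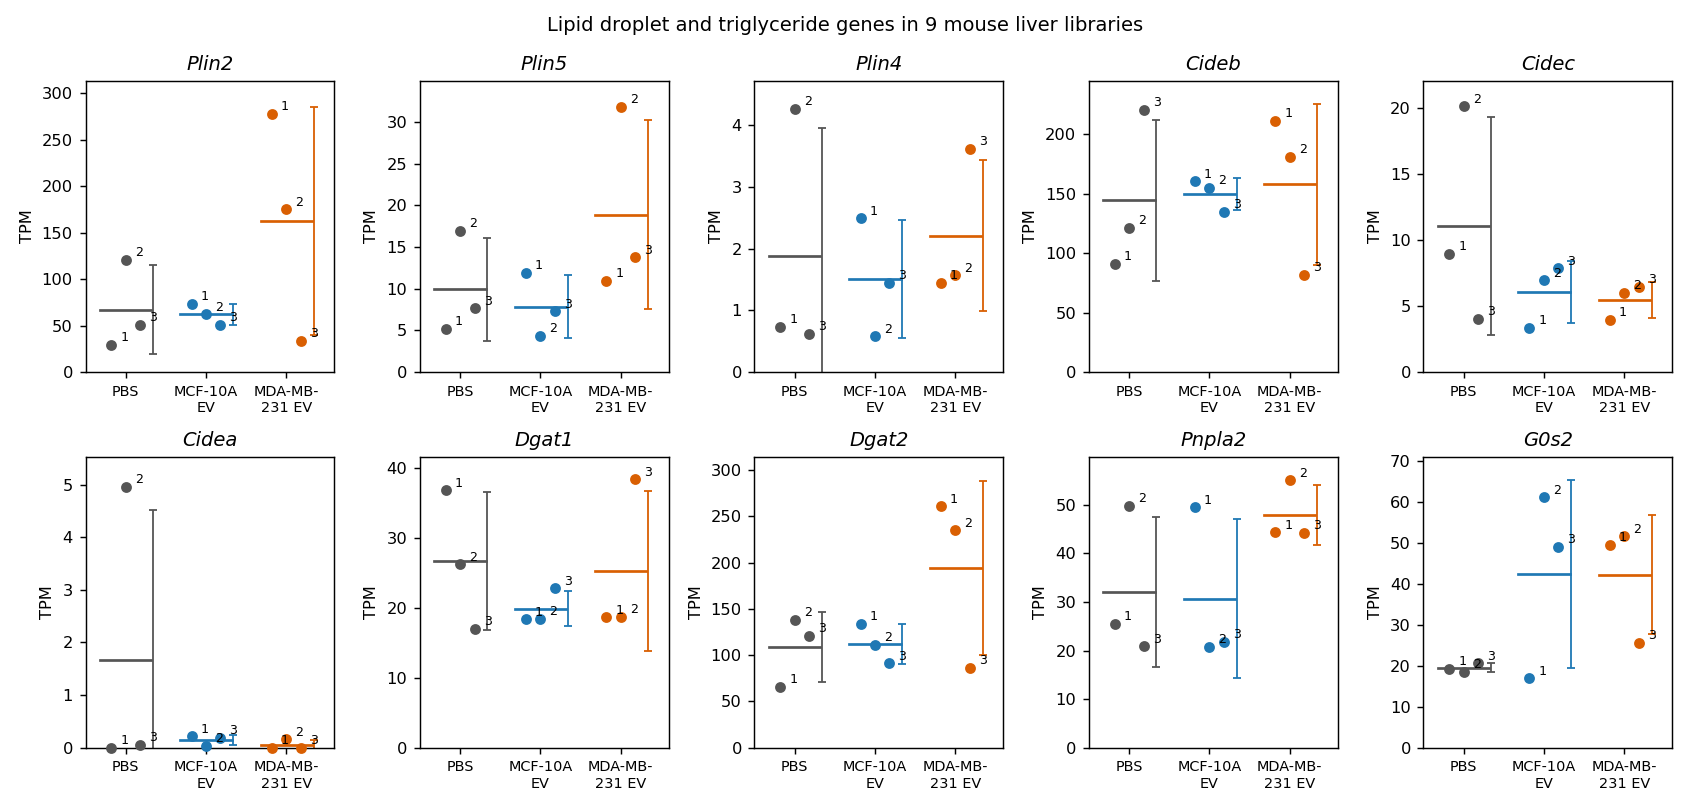
Level of each of the 10 genes (TPM, linear axis, own scale per panel) in each library, grouped by treatment. Points are libraries, horizontal bars the group means and vertical bars the SD over 3 libraries, cut at 0. The 3 PBS libraries of G0s2 sit between 18.5 and 20.6 TPM, below all MDA-MB-231 EV libraries, while the groups of the other genes overlap.

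Plin2, the main droplet coat protein of hepatocytes and a widely used gauge of their lipid load, stood at 29.3, 121 and 51.0 TPM in the PBS libraries. It was at 73.6, 62.3 and 50.9 TPM after MCF-10A EVs and at 278, 175 and 33.8 TPM after MDA-MB-231 EVs. The first and second MDA-MB-231 EV libraries held the highest levels of all 9, and replicate 3 held less than 7 of the other 8, so the groups overlapped throughout. Against PBS, the MDA-MB-231 EV mean (162 ± 123 TPM, SD, n = 3, against 67.1 ± 47.9) gave a log2 change of 1.05 ± 0.75 (SE; limma adjusted p = 1), with a 95% interval from -0.61 to 2.72. Leaving out MDA-MB-231 EV replicate 3 moved this change to 1.94 and leaving out replicate 1 moved it to 0.44. MCF-10A EV libraries averaged 62.3 ± 11.3 TPM (SD, n = 3), close to PBS (log2 change 0.12 ± 0.75, SE).

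Plin5, a coat protein of oxidative tissues that holds droplets near mitochondria, was at 5.19, 17.0 and 7.62 TPM in PBS. It was at 11.9, 4.32 and 7.30 TPM after MCF-10A EVs and at 10.9, 31.8 and 13.8 TPM after MDA-MB-231 EVs. MDA-MB-231 EV replicate 2 was the highest of all libraries, PBS replicate 2 the next, and the groups overlapped. The log2 change was 0.86 ± 0.55 (SE) for MDA-MB-231 EVs against PBS and 1.12 ± 0.55 against MCF-10A EV. Neither passed the test (limma adjusted p = 1 for both), and the second, with an unadjusted limma p of 0.0693, had a 95% interval from -0.11 to 2.34. The first ranged from 0.43 without MDA-MB-231 EV replicate 2 to 1.30 without PBS replicate 2, and the second was 0.68 without MDA-MB-231 EV replicate 2. For MCF-10A EVs against PBS the log2 change was -0.25 ± 0.55 (SE).

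Plin4, a coat protein chiefly of adipocytes and muscle whose gene lies 1797 bases from Plin5 on chromosome 17, stood at 0.73, 4.27 and 0.62 TPM in PBS. It was at 2.49, 0.58 and 1.45 TPM after MCF-10A EVs and at 1.45, 1.57 and 3.62 TPM after MDA-MB-231 EVs. PBS replicate 2 held the highest level and the groups overlapped. Its log2 changes were 0.33 ± 0.56 (SE) for MDA-MB-231 EVs against PBS, -0.04 ± 0.56 for MCF-10A EVs against PBS and 0.37 ± 0.56 between the EVs. The first of these was 0.88 without PBS replicate 2, 0.03 without PBS replicate 3 or MDA-MB-231 EV replicate 3, and 0.07 without PBS replicate 1.

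Cideb, the CIDE protein of hepatocytes that acts in very-low-density lipoprotein lipidation, was at 91.0, 121 and 221 TPM in PBS. It was at 160, 155 and 135 TPM after MCF-10A EVs and at 211, 181 and 82.0 TPM after MDA-MB-231 EVs. Group means were nearly level (144 ± 67.8, 150 ± 13.4 and 158 ± 67.6 TPM, SD, n = 3 each), and the SD of the MCF-10A EV libraries was the smallest of the 3. The log2 change against PBS was 0.12 ± 0.48 (SE; 95% interval -0.95 to 1.18) for MDA-MB-231 EV and 0.15 ± 0.48 for MCF-10A EV, and the first turned to -0.16 after quantile normalization. Of the exon bases of Cideb, 76.3% lie opposite exons of Nop9 (4.73 to 10.2 TPM here). The sources used here do not say whether counting used strand, so reads of the 2 genes over that stretch cannot be told apart.

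Cidec, which drives droplet fusion and is abundant in fat and in steatotic liver, was at 8.97, 20.1 and 4.02 TPM in PBS. It was at 3.37, 6.94 and 7.85 TPM after MCF-10A EVs and at 3.94, 6.02 and 6.44 TPM after MDA-MB-231 EVs. PBS replicate 2 was the highest library and the groups overlapped. It was the gene of the set with the lowest log2 change against PBS in both EV groups, -0.68 ± 0.53 (SE) for MDA-MB-231 EV and -0.59 ± 0.53 for MCF-10A EV (limma adjusted p = 1 for both). Without PBS replicate 2 these were -0.15 and -0.07, and without PBS replicate 3 they were -1.19 and -1.10. The second was -0.28 without MCF-10A EV replicate 1.

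Cidea, a CIDE gene of brown fat that the liver expresses in steatosis, was listed at 0 in PBS replicate 1 and in MDA-MB-231 EV replicates 1 and 3, at 4.96 TPM in PBS replicate 2, and between 0.04 and 0.22 TPM in the other 5 libraries. PBS replicate 2 alone exceeded 1 TPM. That library also held the highest sum over 8 adipocyte markers, 508 TPM against 15.9 to 48.4 TPM in the other 8, and was the highest for 7 of the 8 markers. In it Adipoq stood at 17.6 TPM (at most 0.97 elsewhere), Cfd at 285 (at most 5.30), Fabp4 at 162 (6.80 to 18.1), Plin1 at 4.61 (at most 0.20), Retn at 28.7 (at most 0.63), Ucp1 at 2.17 (at most 0.27) and Lep at 0.09 (0 elsewhere). The eighth, Lipe, was highest in MDA-MB-231 EV replicate 3 at 29.9 TPM. By group the adipocyte sum ranged from 21.04 to 508 TPM in PBS, 17.8 to 22.9 after MCF-10A EVs and 15.9 to 48.4 after MDA-MB-231 EVs. PBS replicate 2 was the highest library for Cidea, Cidec and Plin4, as it was for 2.76% of all tested genes. The part of adipocyte RNA in these levels was not tested. Skeletal muscle markers, relevant to Plin4 and Plin5, summed to at most 1.82 TPM except in MDA-MB-231 EV replicate 3 (8.38 TPM).

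Dgat2, the DGAT enzyme that mainly uses newly made fatty acids, stood at 65.8, 138 and 121 TPM in PBS. It was at 134, 111 and 91.3 TPM after MCF-10A EVs and at 261, 235 and 86.1 TPM after MDA-MB-231 EVs. The first and second MDA-MB-231 EV libraries were again the highest of all 9 and replicate 3 the second lowest. Against PBS the log2 change after MDA-MB-231 EVs was 0.75 ± 0.51 (SE; limma adjusted p = 1; 95% interval -0.37 to 1.87), and it was 1.25 without MDA-MB-231 EV replicate 3, 0.43 without PBS replicate 1 and 0.46 without MDA-MB-231 EV replicate 1. The change was 0.10 ± 0.51 (SE) after MCF-10A EVs, which turned to -0.01 when mitochondrially encoded genes were left out of the total.

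Dgat1, the DGAT enzyme that re-esterifies fatty acids from outside the cell, was at 36.9, 26.3 and 17.1 TPM in PBS. It was at 18.4, 18.5 and 22.8 TPM after MCF-10A EVs and at 18.7, 18.7 and 38.5 TPM after MDA-MB-231 EVs. Here PBS replicate 1 and MDA-MB-231 EV replicate 3 were the 2 highest libraries, the reverse of Dgat2. Group means were 26.7 ± 9.92, 19.9 ± 2.53 and 25.3 ± 11.4 TPM (SD, n = 3 each), and the log2 change against PBS was -0.09 ± 0.43 (SE) for MDA-MB-231 EV and -0.35 ± 0.43 for MCF-10A EV.

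Pnpla2, which encodes the lipase ATGL, stood at 25.5, 49.8 and 20.9 TPM in PBS. It was at 49.5, 20.8 and 21.8 TPM after MCF-10A EVs and at 44.3, 55.0 and 44.2 TPM after MDA-MB-231 EVs. The 3 MDA-MB-231 EV libraries were alike (47.9 ± 6.21 TPM, SD, n = 3), and 1 library of each other group reached their range. The log2 change was 0.65 ± 0.46 (SE) against PBS and 0.73 ± 0.46 against MCF-10A EV (limma adjusted p = 1 for both). The first ranged from 0.41 without PBS replicate 3 to 1.01 without PBS replicate 2, and the second was 1.12 without MCF-10A EV replicate 1.

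G0s2, whose product binds and inhibits ATGL, stood at 19.3, 18.5 and 20.6 TPM in PBS, a mean of 19.5 ± 1.06 TPM (SD, n = 3). It was at 16.9, 61.1 and 49.1 TPM after MCF-10A EVs and at 49.6, 51.6 and 25.6 TPM after MDA-MB-231 EVs. All 3 MDA-MB-231 EV libraries lay above all 3 PBS libraries, and 2 of 3 MCF-10A EV libraries did. The means of the EV groups were level at 42.3 ± 14.4 TPM for MDA-MB-231 EV and 42.4 ± 22.8 TPM for MCF-10A EV (SD, n = 3 each). The log2 change against PBS was 1.01 ± 0.51 (SE; 95% interval -0.11 to 2.14) for MDA-MB-231 EV and 0.90 ± 0.51 for MCF-10A EV, and limma's adjusted p was 1 for each, the unadjusted p of the first being 0.0724. Leaving out single libraries kept the first between 0.84 and 1.33 and gave 0.55 to 1.45 for the second, lowest without MCF-10A EV replicate 2 and highest without replicate 1. Between the EVs it was 0.12 ± 0.51 (SE), with an interval from -1.01 to 1.24, and the sign turned after quantile normalization (-0.13).

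Read as a set, none of the 9 tested genes passed limma's test in any of the 3 comparisons. Over all genes, 0% were called in MDA-MB-231 EVs against PBS, 0.194% (25 genes) in MCF-10A EVs against PBS and 0.218% (28 genes) between the EVs. At an unadjusted limma p under 0.05 the counts were again 0 of 9 in each comparison, where all tested genes gave 1.55%, 3.2% and 3.83% in that order (199, 411 and 492 genes). G0s2 was the single gene of the set whose groups did not overlap, and only for MDA-MB-231 EV above PBS, where 5.23% of all tested genes showed that pattern, and 6.03% separated in either direction. In the other 2 comparisons 0 of 9 genes separated in either direction, against 7.69% of tested genes for MCF-10A EVs against PBS (2.95% higher, 4.74% lower) and 6.53% between the EVs (4.73% higher, 1.8% lower).

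Of the 9 genes, 7 had a log2 change above 0 in MDA-MB-231 EVs against PBS, with a median of 0.65, beside a median of 0.21 and 69.74% above 0 over all tested genes. That general shift moved with the scaling: the median of all genes was 0.10 when mitochondrially encoded genes were left out of the total and 0.04 after quantile normalization. The set's median exceeded it by 0.45 as deposited, by 0.43 with the first scaling and by 0.35 with the second. Single libraries moved this excess much further: it was 0.06 without MDA-MB-231 EV replicate 2, 0.15 without PBS replicate 1, 0.30 without PBS replicate 3 and 0.77 without PBS replicate 2. Relative to the median of all genes, 6 of 9 were higher under each of these scalings. In MDA-MB-231 EVs against MCF-10A EV 7 of 9 were above 0, with a median of 0.37 against 0.17 over all genes (-0.00234 after quantile normalization). In MCF-10A EVs against PBS 4 of 9 were above 0, with a median of -0.04 against 0.07. Leaving out 1 library took that count from 1 of 9 (without PBS replicate 1, median -0.22) to 7 of 9 (without PBS replicate 2, median 0.28). Both comparisons of the MDA-MB-231 EV group share its 3 libraries, so they are not separate evidence.

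**Figure D2:**
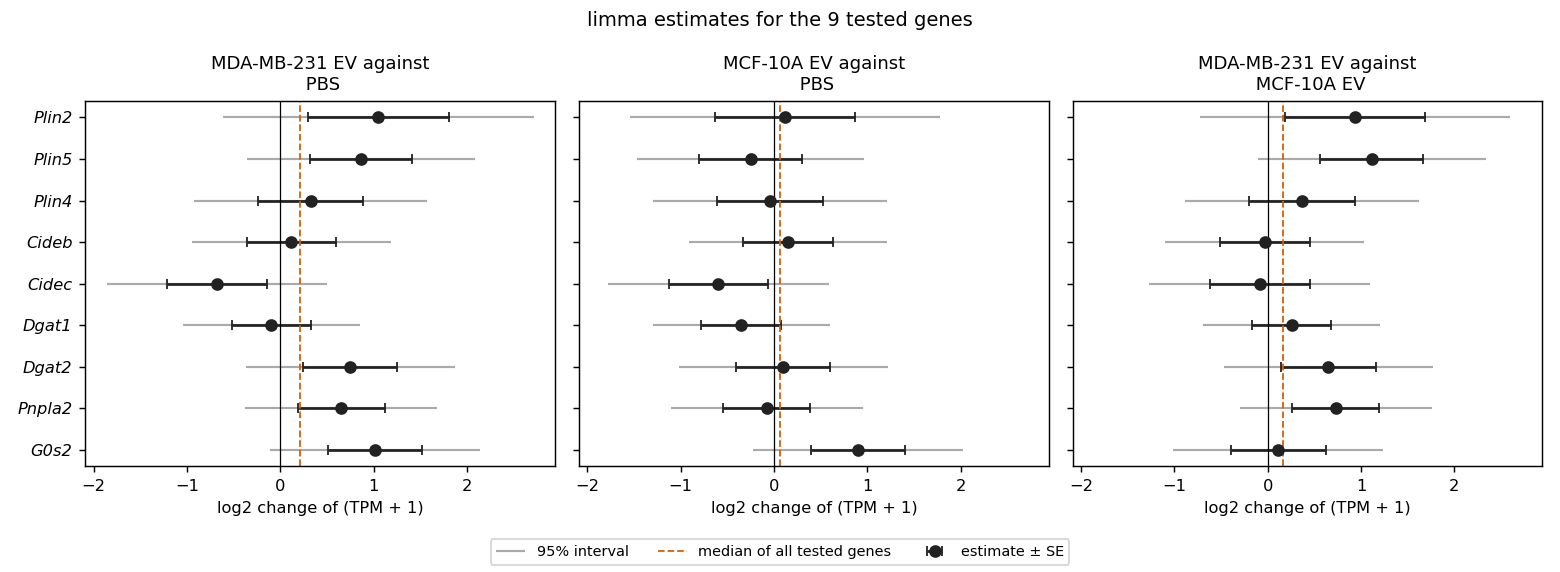
limma log2 changes of log2(TPM + 1) for the 9 tested genes in the 3 comparisons. Points are estimates, short black bars the SE, grey lines the 95% intervals and the dashed line the median of all tested genes. Every grey line crosses 0, and the highest estimate is 1.12, for Plin5 between the EVs.

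Levels within a library were compared next, over 36 pairs of the 9 tested genes across the 9 libraries, on log2(TPM + 1), with exact two-sided permutation tests adjusted over the 36 pairs. In all, 3 pairs passed an adjusted p of 0.05, 5 were under an unadjusted p of 0.05, and 22 of 36 had a positive Pearson r. After quantile normalization 1 pair passed: Cideb and Dgat1 (r = -0.75, exact permutation adjusted p = 0.131) and Plin5 and Pnpla2 (r = 0.81, exact permutation adjusted p = 0.0517) did not. Plin2 and Dgat2, a coat protein and a synthesis enzyme, had r = 0.96 (exact permutation p = 1.9e-05, adjusted 0.00069) and Spearman's rho = 0.98 (exact permutation p = 5e-05, adjusted 0.0018). Without the 2 libraries farthest from the median of Plin2, MDA-MB-231 EV replicates 1 and 2, r was 0.89, and r of the deviations from the group means was 0.96. Of the 12859 other tested genes, 17 (0.132%), with Dgat2 itself counted, were at least as close to Plin2 as Dgat2 was.

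Cideb and Dgat1 ran opposite to each other, with r = -0.95 (exact permutation p = 0.0001, adjusted 0.0018) and rho = -0.87 (exact permutation p = 0.0045, adjusted 0.054). PBS replicate 1 and MDA-MB-231 EV replicate 3 were the 2 lowest libraries for Cideb and the 2 highest for Dgat1, and they stood apart from the rest. Without both, r was -0.85 and its adjusted p, again from an exact permutation test, was 0.104. These libraries were also the 2 lowest for Plin2 and Dgat2. Such a pattern was shared by 11.4% of all tested genes, while 22.1% had both libraries as the 2 highest. The part of their lower hepatocyte marker sums and higher Xist in these pairs was not tested.

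Plin5 and Pnpla2, the coat protein known to recruit ATGL and ATGL itself, had r = 0.86 (exact permutation p = 0.0011, adjusted 0.013) and rho = 0.88 (exact permutation p = 0.0031, adjusted 0.054). Without MCF-10A EV replicate 2 and MDA-MB-231 EV replicate 2, the libraries farthest from the median of Plin5, r was 0.86. The r of the deviations from the group means was 0.79. This pair missed the threshold without MCF-10A EV replicate 2 (exact permutation adjusted p = 0.0813), MDA-MB-231 EV replicate 1 (0.0601) or MDA-MB-231 EV replicate 2 (0.119). Of other tested genes, 0.132% were at least as close to Plin5, and 0.739% at least as close to Pnpla2, with the partner gene itself counted in each share. Pnpla2 and its inhibitor G0s2 had r = -0.17 (exact permutation p = 0.62, adjusted 0.9) and rho = -0.27 (exact permutation p = 0.49, adjusted 0.76).

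**Figure D3:**
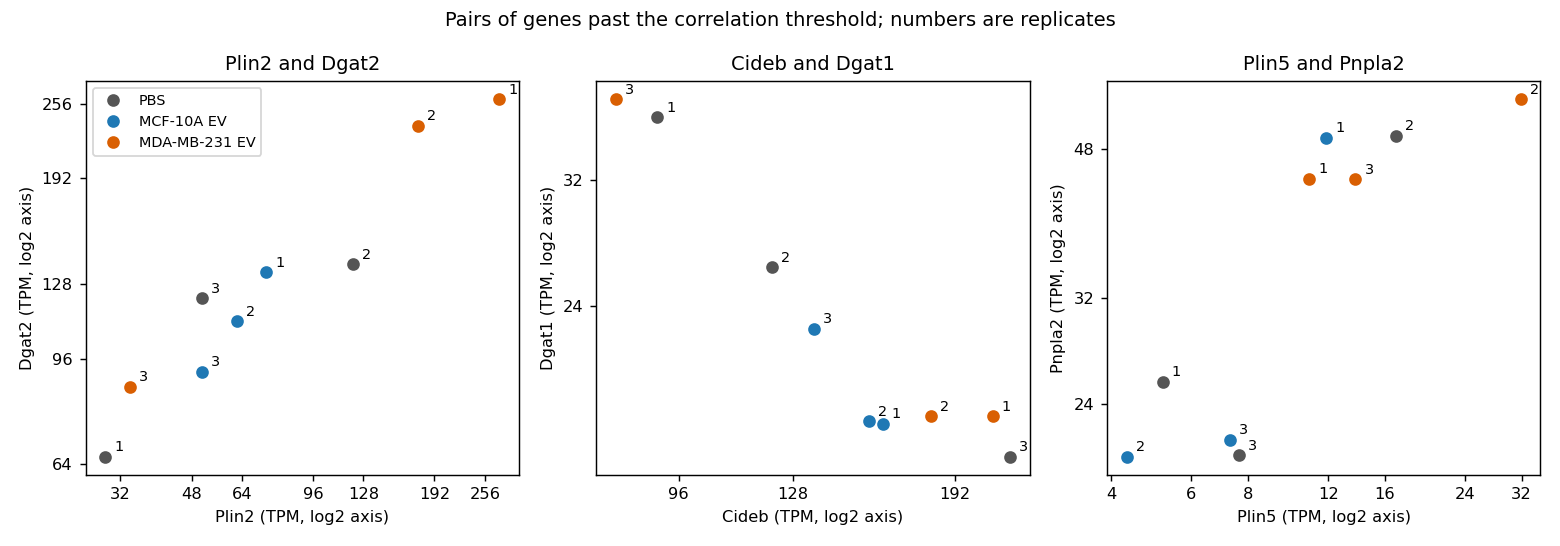
Levels of the 3 pairs of genes past the adjusted threshold, in TPM on log2 axes, with 1 point per library colored by group and numbered by replicate. Plin2 and Dgat2 increase together (r = 0.96), Cideb and Dgat1 run opposite (r = -0.95) with PBS replicate 1 and MDA-MB-231 EV replicate 3 apart from the rest, and Plin5 and Pnpla2 increase together (r = 0.86).

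**Figure D4:**
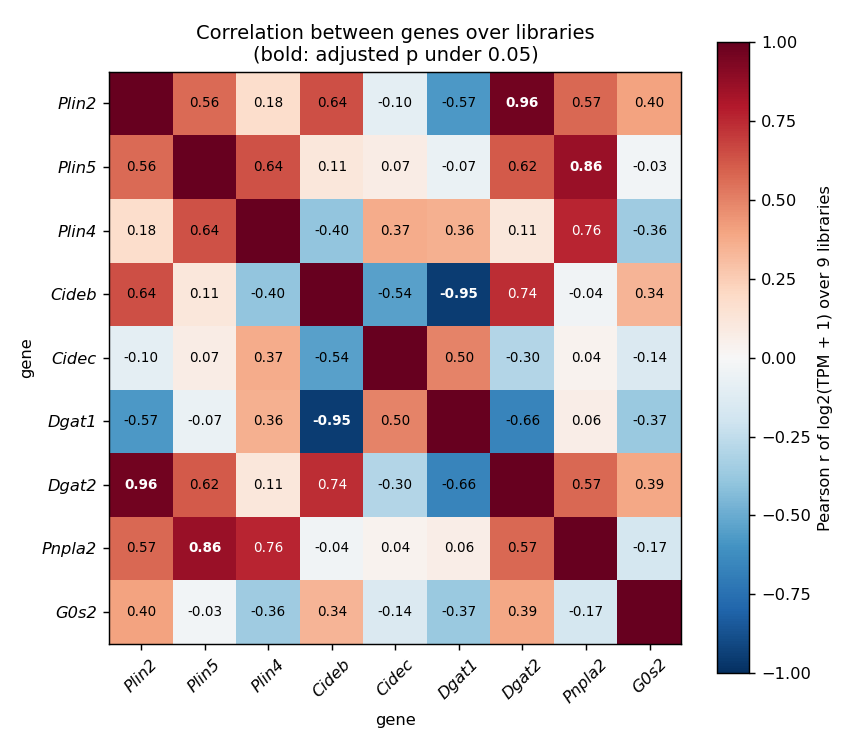
Pearson r of log2(TPM + 1) over the 9 libraries for each of the 36 pairs of tested genes, on a color scale from -1 to 1. The 3 pairs past the adjusted threshold are marked, and 22 of 36 values are above 0.

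By likeness of pattern over the 9 libraries, among 11381 named genes outside the set, Plin2 was closest to Cyp2c29 (r = 0.99, rho = 0.95), a cytochrome P450 of xenobiotic and fatty acid metabolism. Cyp2c29 stood at 19.2, 290 and 67.5 TPM in PBS, 146, 63.4 and 64.4 after MCF-10A EVs and 1037, 413 and 35.7 after MDA-MB-231 EVs. Next came Fitm2 (r = 0.99, rho = 0.95), an endoplasmic reticulum protein needed for droplet budding, and the RNA-binding gene Khdrbs3 (r = 0.98, rho = 0.98). Cidec was closest to Trp53inp1 (r = 0.92, rho = 0.82), Ccl21a (r = 0.87, rho = 0.88) and the adipokine gene Retn (r = 0.83, rho = 0.51), each highest in PBS replicate 2. These coefficients rank genes by likeness and carry no test.

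Around these 10 genes, 62 further genes of the pathway were listed by role in 6 lists, and no tested gene of any list passed limma's test in any comparison. List genes named below were picked for the smallest p, which favors groups without overlap. Of all tested genes, 5.23% lay higher without overlap in MDA-MB-231 EV than in PBS. A further 4.74% lay lower in MCF-10A EV than in PBS, and 4.73% higher in MDA-MB-231 EV than in MCF-10A EV. Counts above 0 stand beside 69.74% of all tested genes in MDA-MB-231 EVs against PBS (median 0.21), 56.78% in MCF-10A EVs against PBS (median 0.07) and 65.05% between the EVs (median 0.17). Above those medians, in that order, lay 6, 2 and 7 of 9 synthesis genes, 7, 4 and 7 of 10 lipolysis genes, 5, 5 and 6 of 9 droplet assembly genes, 4, 5 and 5 of 10 uptake genes, 5, 3 and 4 of 7 regulators and 8, 3 and 10 of 11 fasting and PPARA targets. Markers of other liver cells moved beside them. Between the EVs 8 of 8 stellate markers (median 0.78) and 6 of 6 sinusoidal markers (median 0.97) were above 0, and in MCF-10A EVs against PBS 0 of 8 and 0 of 6 were (medians -0.36 and -0.52). In MDA-MB-231 EVs against PBS 8 of 8 Kupffer markers were above 0 (median 0.83), beside 5 of 8 stellate, 5 of 6 sinusoidal and 6 of 8 hepatocyte markers. Their part in the list changes was not tested. Without MCF-10A EV replicate 1, the changes in MCF-10A EVs against PBS were 0.07 for Plin3, -0.43 for Ces1f and -1.81 for Cyp4a10, and between the EVs 1.47 for Hsd17b13 and 1.99 for Cyp4a10. Leaving out MDA-MB-231 EV replicate 1 moved changes of that group against PBS to 0.26 for Plin3, 0.56 for Slc27a5 and 1.10 for Ces1d. Without its replicate 3 these were 1.28, 1.82 and 2.10. Lpin1 against PBS was 0.39 without its replicate 1 and 1.42 without its replicate 2. Between the EVs, Fitm2 was 0.18 without MDA-MB-231 EV replicate 1 and 1.45 without replicate 3.

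Of the glycerolipid synthesis genes (9 of 11 tested), which build the precursors used by the DGATs, 6 were above 0 in MDA-MB-231 EVs against PBS (median log2 change 0.34), 4 in MCF-10A EVs against PBS (median -0.08) and 7 between the EVs (median 0.49). The acyltransferase Agpat3 (0.63 ± 0.41, SE) and the phosphatidate phosphatase Lpin1 (0.79 ± 0.63) had the smallest p in the first of these. In MCF-10A EVs against PBS these were Gpat4, which starts glycerolipid synthesis (-0.45 ± 0.39), and Lpin2 (-0.43 ± 0.61). Between the EVs they were again Gpat4 (0.77 ± 0.39) and Lpin2 (0.77 ± 0.61), and Gpat4 had no overlap, at 31.4, 26.5 and 45.1 TPM after MDA-MB-231 EVs against 16.7, 16.3 and 26.0.

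All 10 other lipolysis genes were tested, and 10 were above 0 in MDA-MB-231 EVs against PBS (median 0.40), 5 in MCF-10A EVs against PBS (median -0.05) and 7 between the EVs (median 0.70). The liver carboxylesterase genes led: Ces1d, a triglyceride hydrolase, stood at 133, 224 and 70.0 TPM in PBS, 94.4, 97.2 and 179 after MCF-10A EVs and 869, 351 and 214 after MDA-MB-231 EVs. Its log2 change against PBS was 1.65 ± 0.60 (SE; limma unadjusted p = 0.0206, adjusted p = 1) and against MCF-10A EV 1.76 ± 0.60. Ces1g gave 1.64 ± 0.66 against PBS (limma unadjusted p = 0.0304), and Ces1f gave 1.73 ± 0.59 between the EVs and -1.14 ± 0.59 for MCF-10A EVs against PBS. Ces1 genes are a cluster of close copies, so reads may be split among them. Pnpla3, a lipase-like droplet protein of the ATGL family, gave 0.72 ± 0.43 in MCF-10A EVs against PBS.

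Among droplet assembly and other coat genes (9 of 11 tested), 8 were above 0 in MDA-MB-231 EVs against PBS (median 0.32), 6 in MCF-10A EVs against PBS (median 0.17) and 7 between the EVs (median 0.29). Hsd17b13, a liver droplet enzyme, stood at 103, 95.7 and 106 TPM in PBS, at 318, 85.1 and 85.9 after MCF-10A EVs and at 416, 215 and 151 after MDA-MB-231 EVs. Its MDA-MB-231 EV libraries did not overlap PBS (1.22 ± 0.57, SE), and between the EVs the change was 0.84 ± 0.57. The exchangeable coat gene Plin3 gave 0.79 ± 0.60 against PBS for MDA-MB-231 EV and 0.60 ± 0.60 for MCF-10A EV. Hilpda, an inhibitor of ATGL, gave -0.37 ± 0.47 in MCF-10A EVs against PBS, and Fitm2 0.71 ± 0.64 between the EVs.

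Of the fatty acid uptake and activation genes (10 of 11 tested), 6 were above 0 in each comparison, with medians of 0.12 for MDA-MB-231 EVs against PBS, 0.07 for MCF-10A EVs against PBS and 0.28 between the EVs. Slc27a2, a very long chain acyl-CoA synthetase, stood at 100, 146 and 88.1 TPM in PBS, 238, 93.8 and 71.0 after MCF-10A EVs and 616, 258 and 189 after MDA-MB-231 EVs. Its log2 change was 1.51 ± 0.57 (SE; limma unadjusted p = 0.0248) against PBS, with no overlap, and 1.41 ± 0.57 between the EVs. Slc27a5, the bile acid and fatty acid ligase, gave 1.11 ± 0.64 for MDA-MB-231 EVs against PBS and 0.65 ± 0.64 for MCF-10A EV. Acsl1, the main long chain acyl-CoA synthetase, was lower with no overlap in MCF-10A EV than in PBS (-0.80 ± 0.49), and gave 0.73 ± 0.49 between the EVs.

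Of 8 regulators 7 were tested, with 6 above 0 in MDA-MB-231 EVs against PBS (median 0.39), 4 in MCF-10A EVs against PBS (median 0.04) and 4 between the EVs (median 0.34). Ppara, the fasting receptor that activates fatty acid oxidation, stood at 35.5, 23.1 and 13.2 TPM in PBS, at 11.8, 10.9 and 9.06 after MCF-10A EVs and at 81.0, 11.7 and 79.2 after MDA-MB-231 EVs. The MCF-10A EV libraries lay below all PBS libraries (-1.01 ± 0.68, SE), and the MDA-MB-231 EV libraries were split, with replicate 2 within the MCF-10A EV range. The difference between the EVs was 1.92 ± 0.68 (SE; limma unadjusted p = 0.0179, adjusted p = 1), and MDA-MB-231 EVs against PBS gave 0.91 ± 0.68. Creb3l3, another fasting factor of liver, gave 0.60 ± 0.43 against PBS and 0.76 ± 0.43 between the EVs, and Foxo1 gave 0.31 ± 0.43 in MCF-10A EVs against PBS. One more regulator, the liver X receptor gene Nr1h3, named after its values were seen, lay above PBS in all 3 MDA-MB-231 EV libraries (0.39 ± 0.39). That pattern was shown by 5.23% of all tested genes, and the limma unadjusted p of Nr1h3 was 0.343.

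All 11 genes of the fasting and PPARA target list were tested, and 10 were above 0 in MDA-MB-231 EVs against PBS (median 0.56), 5 in MCF-10A EVs against PBS (median -0.05) and 11 between the EVs (median 0.61). Cyp4a10, a fatty acid hydroxylase and classic PPARA target, stood at 128, 196 and 201 TPM in PBS, at 3.83, 55.9 and 41.8 after MCF-10A EVs and at 284, 164 and 158 after MDA-MB-231 EVs. The MCF-10A EV libraries lay below all others. The log2 change was -2.92 ± 0.80 (SE) against PBS (limma unadjusted p = 0.00408, adjusted p = 0.521) and 3.10 ± 0.80 between the EVs (limma unadjusted p = 0.0028, adjusted p = 0.479). Its neighbor Cyp4a14, a close copy, gave -1.51 ± 1.28 and 2.83 ± 1.28. For MDA-MB-231 EVs against PBS the smallest p in the list belonged to the hormone gene Fgf21 (0.95 ± 0.73) and to Cpt1a, the gate of mitochondrial fatty acid import (0.96 ± 0.75). Single libraries moved both: Fgf21 was 0.31 without PBS replicate 1 and 1.69 without PBS replicate 2, and Cpt1a was 0.16 without MDA-MB-231 EV replicate 1 and 1.75 without replicate 3.

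**Figure D5:**
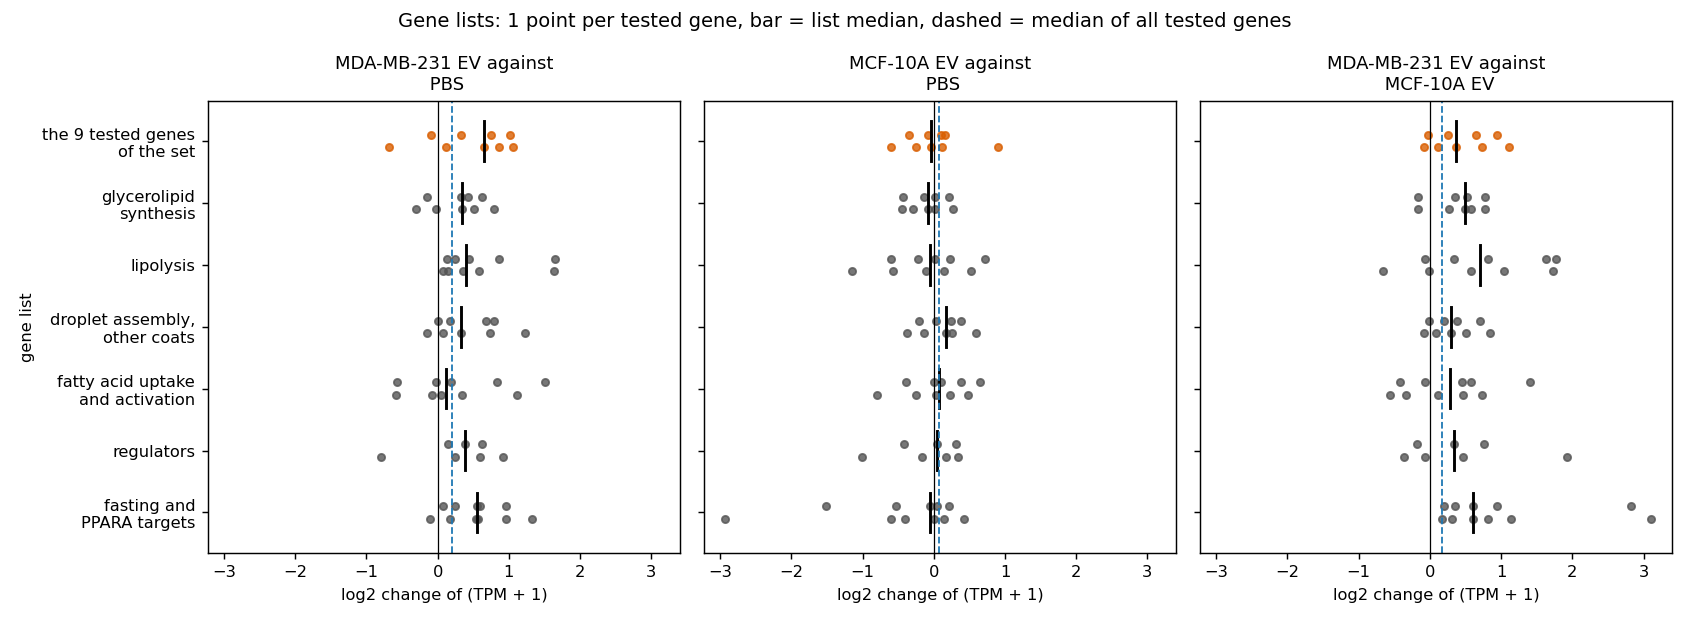
limma log2 changes of the tested genes of the 10-gene set and of each of the 6 pathway lists in the 3 comparisons. Points are genes, thick marks the list medians and the dashed line the median of all tested genes. In MDA-MB-231 EVs against PBS the list medians lie between 0.12 and 0.65, and in MCF-10A EVs against PBS between -0.08 and 0.17.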

How the data were processed

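Per the labels' protocols, liver libraries came from the TruSeq kit with 1 µg of total RNA each. The authors deposited TPM per library in 1 table of 61473 features, and the submitters' processing notes name HISAT2, RSEM, StringTie and build GRCm39, with no versions. TPM keeps no read depth, so depth is unknown and no counting interval is given. The 6059 assembled loci were left out, since they are listed at 0 in all MCF-10A EV libraries. Groups follow the treatment labels.

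limma 3.58.1 (R 4.3.3) was fitted to log2(TPM + 1) of the 9 libraries, with group means and a trended prior variance. Tests were two-sided, over the 12860 genes whose mean reached 1 TPM, with Benjamini-Hochberg adjustment in each comparison. Genes under an adjusted p of 0.05 were called. Changes on this scale are understated for low genes. Correlations used exact permutation over the libraries. The limma step was tested on simulated data with independent noise in each gene and library, which does not cover deviations that libraries share across genes. Of 62 pathway genes, 1 had no match by symbol.

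The genes, the 6 pathway lists and the 8 marker lists were chosen with earlier results of these data known. Named by rule are all 10 genes, up to 2 genes per pathway list and comparison with the smallest p, all adipocyte markers, and the 3 genes most like Plin2 and Cidec. Named outside that rule are Nr1h3, single hepatocyte, Kupffer and pancreas markers, and Xist, Malat1 and Neat1. Alternatives were a pseudocount of 0.1 TPM, no filter, scaling without mitochondrially encoded genes, quantile normalization, array weights, only the groups compared, a replicate block, and libraries left out. Promoter and miRNA sequences are from RefSeq, and 3′ UTRs from GENCODE, on GRCm38 and not on the authors' build.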

Additional observations from a re-analysis of the deposited data

How the results depend on the processing

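No value here has a known read depth, and 3 libraries per group limit precision. None of the 27 changes of the 9 genes was called as deposited. Over alternatives that leave out no single library, 194 of 216 values kept their direction and side of the threshold, 21 turned in sign and 1 was newly called. With single libraries left out, 216 of 243 stayed and 27 turned. For genes named from the lists, 285 of 288 and 323 of 324 stayed in direction and side, though sizes moved by over 1.5 times for several. The list genes were picked for the smallest p in these same libraries, so their counts cannot be set beside those of the 9 genes. The cause of a turned sign, a new call or a moved size was not tested.

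Genes called in MDA-MB-231 EVs against PBS (0 as deposited) numbered 0 to 24 with single libraries left out, 24 without PBS replicate 1 and 5 without MDA-MB-231 EV replicate 3, and 28 without both. In MCF-10A EVs against PBS (25) they ranged from 14 without MCF-10A EV replicate 3 to 59 without MDA-MB-231 EV replicate 3, with 54 without PBS replicate 1 and 15 without PBS replicate 3. They were 40 with the pseudocount of 0.1, 12 with no filter, 548 with array weights, 85 without PBS replicate 1 and MDA-MB-231 EV replicate 3, and 66 with only the groups compared. Between the EVs (28) they ranged from 13 without MCF-10A EV replicate 3 to 31, and were 11 with no filter, 46 with array weights and 17 with only the groups compared. Of the 9 genes, 0 to 0 were called in each comparison with single libraries left out. Array weights called 1 of the 9 genes, G0s2 in MCF-10A EVs against PBS (1.26, limma adjusted p = 0.00953), among 548 of 12860 tested genes. From the lists they also called Pnpla3 (0.94, limma adjusted p = 0.0455) and Cyp4a10 (-2.23, 0.00351). Weights ran from 0.258 for MDA-MB-231 EV replicate 3 to 8.24 for PBS replicate 3. MCF-10A EV replicate 1, the library of its group with G0s2 below PBS (16.9 TPM), had a weight of 0.323. Correlated pairs (3) numbered 2 without MCF-10A EV replicate 2 or MDA-MB-231 EV replicate 1, and 3 with any other single library left out. Without MDA-MB-231 EV replicate 2 the count stayed at 3 although Plin5 with Pnpla2 missed the threshold (exact permutation adjusted p = 0.119), so another pair passed there. There were 2 pairs without both PBS replicate 1 and MDA-MB-231 EV replicate 3. Quantile normalization left 1 pair and ended the calls of Cideb with Dgat1 and Plin5 with Pnpla2. The share of genes above 0 in MDA-MB-231 EVs against PBS was 69.7% as deposited, 59.8% without mitochondrially encoded genes and 53.5% after quantile normalization; in MCF-10A EVs against PBS it was 56.8% and 47.2% for the first 2.

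Signs turned as follows. In MDA-MB-231 EVs against PBS, array weights gave -0.23 for Cideb and 0.19 for Dgat1, scaling without mitochondrially encoded genes -0.00907 and quantile normalization -0.16 for Cideb, and leaving out PBS replicate 1 and MDA-MB-231 EV replicate 3 gave -0.22 for Plin4. In MCF-10A EVs against PBS, array weights gave 0.18 for Plin4, -0.47 for Cideb, 0.17 for Dgat1, -0.0081 for Plin2, 0.40 for Cidec, -0.27 for Dgat2 and 0.15 for Lpin2; the pseudocount gave 0.0213 for Plin4, the mitochondrial scaling -0.0118 for Dgat2, and leaving out the 2 libraries -0.13 for Cideb, -0.35 for Plin2 and -0.22 for Dgat2. Between the EVs, array weights gave -0.16 for G0s2 and 0.23 for Cideb, quantile normalization -0.13 for G0s2, and leaving out the 2 libraries 0.38 for Cideb and -0.078 for Dgat1.

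With single libraries left out, the range over libraries crossed 0 in MDA-MB-231 EVs against PBS for Cideb (-0.16 to 0.53) and Dgat1 (-0.43 to 0.16). In MCF-10A EVs against PBS it did so for Plin2 (-0.35 to 0.66), Plin4 (-0.34 to 0.51), Plin5 (-0.59 to 0.18), Cideb (-0.13 to 0.51), Pnpla2 (-0.47 to 0.28), Dgat2 (-0.22 to 0.31) and Hilpda (-0.75 to 0.014). Between the EVs it did so for G0s2 (-0.43 to 0.47), Cideb (-0.29 to 0.38), Dgat1 (-0.078 to 0.42) and Cidec (-0.40 to 0.11).

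With the replicate block, genes called numbered 0 in MDA-MB-231 EVs against PBS, 20 in MCF-10A EVs against PBS and 15 between the EVs, and 0 of the 9 genes were called in each. Deviations of same-numbered libraries correlated between -0.389 and 0.500. Between the EV groups, same-numbered libraries gave 0.336, 0.110 and 0.436, and differently numbered ones -0.337 to 0.116. Over all pairs of groups, differently numbered libraries ran wider, from -0.595 (PBS replicate 1 with MDA-MB-231 EV replicate 2) to 0.625 (PBS replicate 1 with MDA-MB-231 EV replicate 3). Same-numbered libraries of PBS and MCF-10A EV gave -0.206 to -0.0897. With 3 libraries per group these values cannot decide whether the numbers pair the samples, and the labels do not say.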

Other observations

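Ratios within a library, chosen after their values were seen and given with no test, describe the balance of the genes. G0s2 stood to Pnpla2, inhibitor to lipase, at 0.757, 0.372 and 0.986 in PBS, 0.341, 2.94 and 2.25 after MCF-10A EVs and 1.12, 0.937 and 0.580 after MDA-MB-231 EVs. MCF-10A EV replicates 2 and 3 held the highest ratios and replicate 1 the lowest of all 9 libraries.

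Dgat2 stood to Dgat1 at 1.78, 5.26 and 7.11 in PBS, 7.27, 6.0 and 4.0 after MCF-10A EVs and 13.9, 12.6 and 2.24 after MDA-MB-231 EVs. MDA-MB-231 EV replicates 1 and 2 were highest, and PBS replicate 1 and MDA-MB-231 EV replicate 3 lowest. Plin2 made up between 66.0% and 95.7% of the summed TPM of Plin2, Plin4 and Plin5, and Cideb between 82.9% and 98.2% of that of the CIDE genes. Cideb stood to Cidec at 6.03 in PBS replicate 2, the lowest ratio, and at 54.9 in PBS replicate 3, the highest.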
